A study of Mus musculus with 18 samples.

Results

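Cathepsins and legumain are the proteases that cut proteins inside lysosomes and endosomes. The 9 genes described here (Ctsa, Ctsb, Ctsc, Ctsd, Ctsh, Ctsl, Ctss, Ctsz and Lgmn) were chosen by symbol from the authors' table of 12960 detected genes, and 9 of 9 were found and passed the filter on low values (a mean of at least 1 RPKM in some group), Ctsl although it fell under 1 in activated KO. The choice used the listing of a gene as detected in these libraries and was made with results of the series known, so the counts below are not independent support for a pattern in the family. RNA was measured in sorted or enriched spleen cells of mice, 1000 cells to a library, with 18 libraries in 6 groups of 3. Knockout mice (KO) carried G9afl/fl, the floxed gene Ehmt2, and 1 Cre allele whose recombinase can delete it. Control mice (Ctrl) were heterozygous for the same Cre allele, so no group is free of Cre. Each genotype was studied at 3 stages. Naive B cells were bead-enriched as CD43- cells from uninfected mice. Activated B cells (B220+GL7+) and plasma cells (B220 mid or low, CD138+) were sorted 72 h after 50 µg lipopolysaccharide (LPS) in 100 µl was injected into the tail vein, both from cells negative for Zombie yellow, F4/80, Cd11b and Thy1.2. Cell type, LPS and isolation method therefore cannot be told apart between naive and activated cells. The labels give no ages and do not say that replicates came from separate animals, so p-values measure the spread between these libraries, which may be technical.

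These enzymes are made as inactive precursors in the endoplasmic reticulum, carried to lysosomes on mannose 6-phosphate receptors and matured there in acid. Most cathepsins are cysteine proteases of the papain family, which cystatins inhibit, while Ctsd is an aspartic protease and Ctsa a serine carboxypeptidase. In B cells they cut antigen and the invariant chain Cd74 so that peptides can load onto MHC class II, and plasma cells largely shut that presentation pathway down.

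Values are RPKM (reads per kilobase of gene, relative to the reads of the library) as deposited, scaled between libraries, so that levels may be compared between genes per length. Changes are differences of log2(scaled RPKM + 1), and a gene is called where limma gave a Benjamini-Hochberg adjusted p under 0.05 over the 12787 genes tested, in a fit of all 18 libraries. The median SD of a gene on the log2 scale was 0.388 in naive KO and 0.369 in naive Ctrl libraries, and 0.125 to 0.135 in the activated and plasma cell groups. Over all genes the shared spread of the fit therefore suits neither kind of cell. For the members the median SD was 0.1375 in naive KO and 0.137 in naive Ctrl. It was 0.153 in activated KO, 0.111 in activated Ctrl, 0.0777 in plasma cell KO and 0.103 in plasma cell Ctrl. Where a fit of only the libraries compared alters a call, the adjusted p of that own-library fit is given too. Naive libraries held an estimated 1.49 to 3.77 M reads, and plasma cell libraries 5.07 to 6.80 M. The estimates of naive Ctrl replicate 3 (1.49 M) and replicate 2 (3.71 M) are weak. The lowest of the other naive estimates was 1.62 M, in KO replicate 2. Activated KO replicate 3 held an estimated 2.66 M, and the other activated libraries 6.69 to 10.5 M. Ehmt2 averaged 17.0 in naive KO and 19.4 in naive Ctrl, 22.5 in activated KO and 22.3 in activated Ctrl, and 13.8 in plasma cell KO and 17.2 in plasma cell Ctrl (adjusted p = 0.695, 1.00 and 1.00), over the whole gene, so the deletion itself was not checked. Summed RNA of 7 B cell markers ranged over 4933 to 5237 in naive KO and 4586 to 4979 in naive Ctrl. That sum was 2342 to 2479 in activated KO, 3122 to 3560 in activated Ctrl, 941 to 1084 in plasma cell KO and 1298 to 1634 in plasma cell Ctrl. Summed RNA of 7 plasma cell markers ranged over 11670 to 12990 in plasma cell KO and 12700 to 14340 in plasma cell Ctrl. In activated cells it was 902 to 1091 in KO and 1608 to 1786 in Ctrl, and in naive cells 561 to 668 in KO and 523 to 639 in Ctrl. By these sums the libraries of the 3 labelled cell types did not overlap. Replicate 4 of plasma cell KO stood apart, with 69.0 RPKM summed over 11 macrophage and monocyte markers and 55.5 over 3 globin genes, against at most 12.5 and 1.70 in the other plasma cell KO libraries and 37.1 and 0.764 in plasma cell Ctrl libraries.

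The start regions of 7 of the 9 genes were matched in RefSeq (GRCm38.p6), in 9 promoters, and those of Ctsb and Ctsh were not. The 250 bases before each start were searched on both strands for CACGTG, the E-box at the core of the element bound by the lysosomal regulators TFEB and TFE3, and for GAAANNGAAA, which interferon regulatory factors bind; these patterns do not overlap. CACGTG was found in Ctsa, Ctsd, Ctsl and Lgmn, thus in 4 of 7 members, against 9.77% of the 10353 table genes with a promoter and 6.02% of all 32851 promoters. GAAANNGAAA was found in Ctss alone, against 3.50% of table genes and 2.98% of promoters. The stretches below carry the matches of the 4 such members that were called lower in activated B cells of KO mice, written 5′ to 3′ on the gene's strand with the matches in capitals. They lie at chr2:164833523-164833772 (forward strand, the later of 2 Ctsa starts), chr7:142387828-142388077 (reverse strand, Ctsd), chr12:102439093-102439342 (reverse strand, the later of 2 Lgmn starts) and chr3:95526536-95526785 (forward strand, Ctss).
Ctsa: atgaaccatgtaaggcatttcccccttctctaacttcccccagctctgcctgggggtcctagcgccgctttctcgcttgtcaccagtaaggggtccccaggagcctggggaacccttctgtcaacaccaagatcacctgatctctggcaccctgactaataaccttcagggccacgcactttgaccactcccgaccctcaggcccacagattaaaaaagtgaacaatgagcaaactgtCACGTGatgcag
Ctsd: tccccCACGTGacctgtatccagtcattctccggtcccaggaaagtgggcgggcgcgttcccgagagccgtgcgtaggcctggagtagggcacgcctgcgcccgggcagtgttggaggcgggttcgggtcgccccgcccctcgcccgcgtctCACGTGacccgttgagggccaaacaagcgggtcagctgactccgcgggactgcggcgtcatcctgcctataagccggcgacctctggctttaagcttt
Lgmn: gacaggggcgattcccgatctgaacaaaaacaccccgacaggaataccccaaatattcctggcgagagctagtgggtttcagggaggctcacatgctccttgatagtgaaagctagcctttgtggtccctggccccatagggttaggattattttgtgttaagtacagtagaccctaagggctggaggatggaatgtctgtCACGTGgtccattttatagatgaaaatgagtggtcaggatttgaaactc
Ctss: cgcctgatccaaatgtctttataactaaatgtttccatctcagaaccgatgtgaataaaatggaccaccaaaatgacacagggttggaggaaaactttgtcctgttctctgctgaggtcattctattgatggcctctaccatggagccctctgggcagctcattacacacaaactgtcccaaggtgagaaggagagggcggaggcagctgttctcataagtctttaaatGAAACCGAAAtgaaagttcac

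Counted from the start to the first base of the match, CACGTG lay 12 bases upstream in Ctsa, 98 and 245 in Ctsd, 49 in Lgmn and 236 in Ctsl, and GAAANNGAAA lay 21 bases upstream in Ctss. The other Ctsa and Lgmn starts held neither pattern. The matched stretches of Ctsa, Lgmn and Ctsl (chr13:64370521-64370770, reverse strand) lay wholly inside the gene spans given below. They thus precede internal starts and not the outermost start of the gene. That of Ctsd overlapped the span of its gene in part. Members and table genes alike were counted for a match at any of their listed starts. A match describes letters only, and binding was not measured.

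The members spanned a wide range of levels, and their order differed between cell types. In naive B cells Ctss, the protease that makes the last cuts of the invariant chain in B cells, was highest, at 489.9 ± 66.3 RPKM in KO and 469.7 ± 40.0 in Ctrl (SD, n = 3 each; GRCm38 chr3:95526786-95556403, forward strand). It was followed by Ctsz, a carboxypeptidase also called cathepsin X (chr2:174427493-174439039, reverse strand), at 365 ± 35.4 in KO and 335 ± 24.3 in Ctrl, and by the aminopeptidase Ctsh (chr9:90054152-90076089, forward strand), at 303 ± 4.70 in KO and 255 ± 19.9 in Ctrl. The libraries of these 3 genes did not overlap between neighbours in the order, in either genotype. Ctsa, Ctsd, Lgmn and Ctsb formed a middle group of 47.5 to 77.2 RPKM whose neighbours overlapped. Ctsc stood at 37.4 in KO and 38.2 in Ctrl, and Ctsl was lowest in every group.

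In plasma cells the order was Ctsz, Ctss, Ctsd, Ctsb, Lgmn, Ctsh, Ctsa, Ctsc and Ctsl in both genotypes, and no neighbours in it overlapped. Ctsz reached 719 ± 33.4 RPKM in KO and 859.6 ± 68.7 in Ctrl. Ctsh, above Lgmn, Ctsd and Ctsb in naive cells, lay below them in plasma cells. In activated B cells Ctsz came first, and the ranges of Ctsh and Ctss overlapped in both genotypes. There Lgmn lay next below Ctss and Ctsh in Ctrl but below Ctsc in KO. Lgmn is an endopeptidase that cuts after asparagine and matures several cathepsins (chr12:102394084-102439813, reverse strand). In activated KO these genes nearly met, with the highest Lgmn library at 49.63 RPKM and the lowest Ctsc library at 49.89. In activated Ctrl the lowest Lgmn library was at 94.96 and the highest Ctsc library at 64.17.

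**Figure D1:**
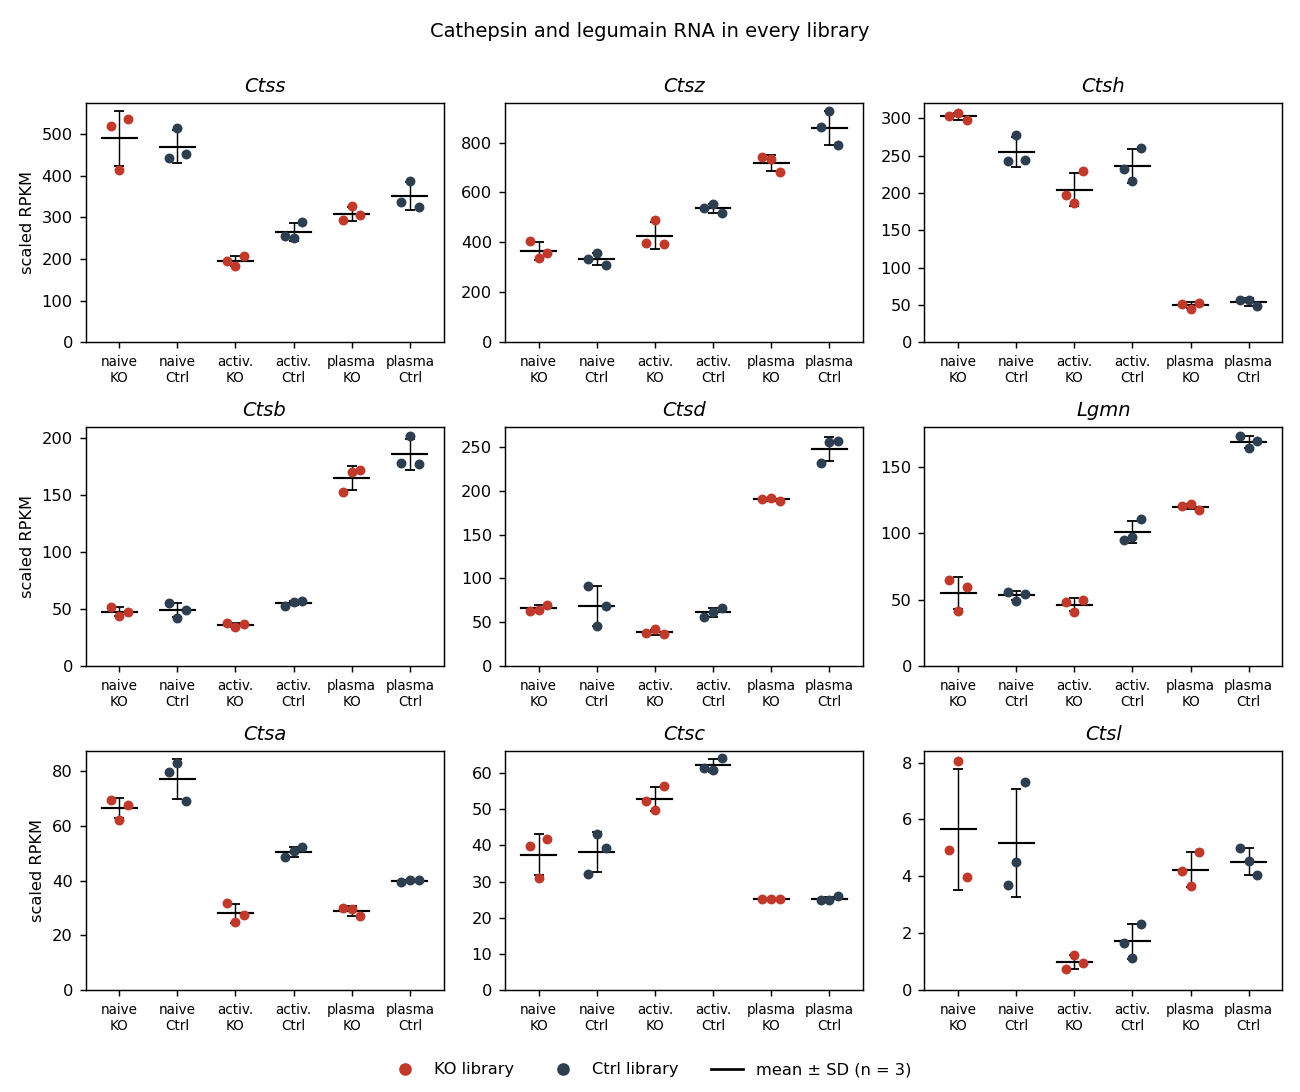
Scaled RPKM (y axis, from 0, its own scale per gene) of the 9 genes in each of the 18 libraries, by cell type and genotype on the x axis; red points are KO and dark points Ctrl libraries, and black bars show mean ± SD over 3 libraries. The activated KO points of Lgmn sit between 40.5 and 49.6, below all activated Ctrl points (94.96 to 110.4), while the naive KO and naive Ctrl points of Lgmn overlap.

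Summed over the 9 genes, RNA was 1436 ± 113 RPKM in naive KO and 1351 ± 63.9 in naive Ctrl, 1029 ± 28.1 in activated KO and 1368 ± 44.7 in activated Ctrl, and 1610.0 ± 37.1 in plasma cell KO and 1936 ± 115 in plasma cell Ctrl (SD, n = 3 each). The activated KO libraries (997 to 1051) lay below the activated Ctrl libraries (1338 to 1420.0), and the plasma cell KO libraries (1573 to 1647) below the plasma cell Ctrl libraries (1837 to 2062). In a bulk sample, fewer cells of a kind and less RNA per cell cannot be told apart. Ctss made up 34.0% of the sum in naive KO and 34.7% in naive Ctrl, and 18.1% to 19.3% in the later cell types. Ctsz made up 25.4% in naive KO and 24.8% in naive Ctrl, and 44.6% in plasma cell KO and 44.4% in plasma cell Ctrl. Ctsh made up 21.2% in naive KO and 18.9% in naive Ctrl, but 3.08% in plasma cell KO and 2.78% in plasma cell Ctrl. The share of Lgmn in activated cells was 4.48% ± 0.544 in KO and 7.37% ± 0.357 in Ctrl, without overlap of the libraries.

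**Figure D2:**
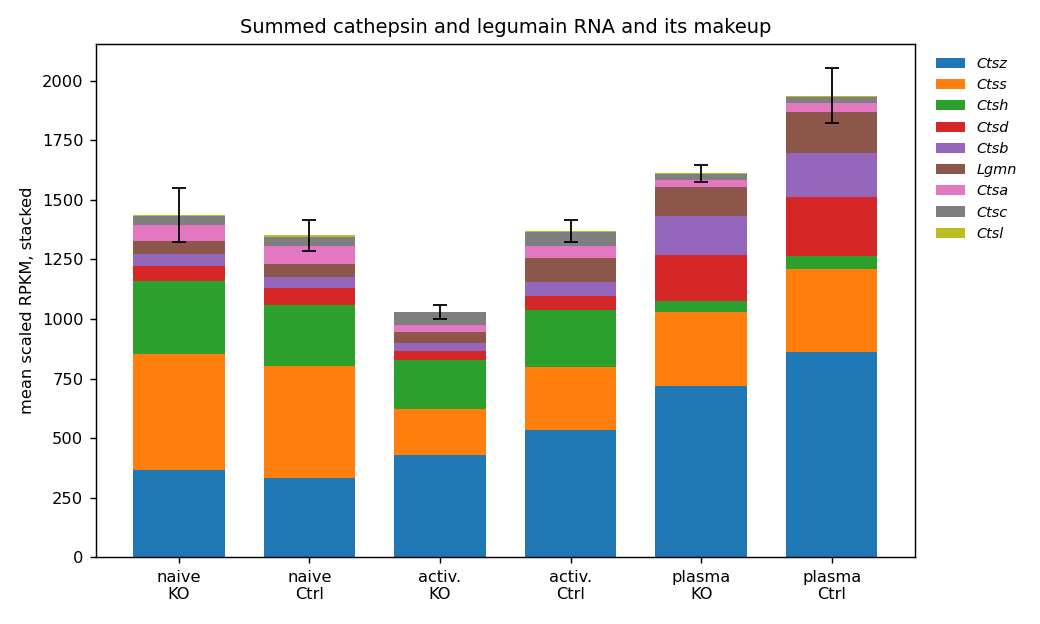
Mean scaled RPKM of the 9 genes stacked (y axis) for each cell type and genotype (x axis), with black bars for the SD of the sum over 3 libraries. The stack is lowest in activated KO (1029) and highest in plasma cell Ctrl (1936), and the Ctsh segment is thin in both plasma cell groups.

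From naive to activated B cells in Ctrl, some members were called higher and others lower, in a step where limma called 58.4% of all tested genes. Called higher in activated cells were Ctsc, the dipeptidyl peptidase that activates granule serine proteases (chr7:88278085-88310888, forward strand), Ctsz and Lgmn. Called lower were Ctsa, Ctsl and Ctss. Thus 3 of 9 were higher against 19.0% of all tested genes, and 3 of 9 were lower against 39.4%, and the median change of all genes was -0.29 (-0.06 after quantile normalization). The naive libraries also held RNA of markers of other cells: macrophage and monocyte markers (11 of 15 used here) summed to 21.6 to 31.8 RPKM in activated Ctrl and 167 to 194 in naive Ctrl, with 10 called lower and 1 higher, globin genes (3 of 9 erythroid markers) to 10.2 to 12.9 in activated Ctrl and 342 to 448 in naive Ctrl, and platelet markers (3 of 5) to 1.24 to 1.37 in activated Ctrl and 46.8 to 105 in naive Ctrl. The higher macrophage and monocyte marker was Itgam, at 17.2 RPKM in activated Ctrl and 2.49 in naive Ctrl. The part of all these markers in the changes of the members was not tested. Lgmn measured 94.96, 97.5 and 110.4 RPKM in activated Ctrl, against 56.1, 49.1 and 54.4 in naive Ctrl, a change of 0.91 (SE 0.13, adjusted p = 2.0e-05). Ctss measured 254, 251 and 289 in activated Ctrl, against 442, 516 and 452 in naive Ctrl, a change of -0.83 (SE 0.11, adjusted p = 5.1e-06). The groups of both genes were well apart, in opposite directions. Ctsz followed Lgmn, at 536, 554 and 519 RPKM in activated Ctrl, against 335, 359 and 311 in naive Ctrl (1.60-fold; change 0.68, adjusted p = 1.6e-05). Ctsc was 1.63-fold higher, at 62.1 ± 1.81 in activated Ctrl and 38.2 ± 5.62 in naive Ctrl (change 0.70, adjusted p = 1.6e-04). Ctsa followed Ctss, at 48.7, 50.7 and 52.2 in activated Ctrl, against 79.6, 82.9 and 69.1 in naive Ctrl (change -0.60, adjusted p = 1.9e-04). Ctsb, Ctsd and Ctsh had overlapping groups and were not called (changes 0.18, -0.11 and -0.11). Ctsl, an endopeptidase that processes the invariant chain in thymic epithelium (chr13:64359337-64370890, reverse strand), measured 1.71 ± 0.6003 in activated Ctrl and 5.18 ± 1.90 in naive Ctrl, near the pseudocount of 1, which understates its change of -1.17 (adjusted p = 0.00109). Its call in that step was lost after quantile normalization (adjusted p = 0.0557).

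In KO the same step was called lower for 6 members and higher for 1, against 34.5% and 21.2% of all genes. Ctsa, Ctsb, Ctsd, Ctsh, Ctsl and Ctss were lower and Ctsc was higher in activated KO than in naive KO. Macrophage and monocyte markers summed to 15.2 to 50.4 RPKM in activated KO and 118 to 184 in naive KO (10 of 11 called lower, 1 higher), globin genes to 45.6 to 63.3 in activated KO and 312 to 642 in naive KO, and platelet markers to 0.138 to 0.325 in activated KO and 40.9 to 72.7 in naive KO, and their part was not tested here either. The higher marker was again Itgam, at 13.3 RPKM in activated KO and 2.04 in naive KO. Among the members the fold was largest for Ctsl, at 0.974 ± 0.250 RPKM in activated KO and 5.65 ± 2.13 in naive KO (change -1.71, adjusted p = 3.3e-05). Ctss was 2.52-fold lower, at 194, 182 and 208 in activated KO, against 519, 414 and 537 in naive KO (change -1.32, adjusted p = 1.2e-08). Ctsa was 2.37-fold lower, at 31.7, 25.0 and 27.5 in activated KO, against 69.3, 62.3 and 67.7 in naive KO (change -1.22, adjusted p = 5.3e-08). In each of these 3 genes every activated library lay below every naive library. Lgmn was not called: it measured 48.0, 40.5 and 49.6 RPKM in activated KO, against 64.8, 41.7 and 59.3 in naive KO (change -0.24, adjusted p = 0.128). These groups overlapped, where those of Ctrl had been apart. For Ctsz, activated KO libraries held 399, 489 and 394 RPKM and naive KO libraries 404, 335 and 356 (change 0.22, adjusted p = 0.0556), and these too overlapped. The difference of this step of Ctsz between KO and Ctrl was -0.46 (adjusted p = 0.0834), and those of Lgmn and Ctsa, which were called, are given with the KO effects.

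Plasma cells differed from activated B cells in every member in Ctrl. Called higher in plasma cells were 6 of 9, against 16.1% of all genes, and called lower were the other 3, against 16.7%. The largest gains were those of Ctsd and Ctsb. Ctsd, the main aspartic protease of lysosomes (chr7:142375911-142388038, reverse strand), measured 232, 255 and 256 RPKM in plasma cell Ctrl, against 56.0, 61.3 and 66.3 in activated Ctrl (4.05-fold; change 2.001, SE 0.16, adjusted p = 8.8e-09). Ctsb, an endopeptidase that also trims dipeptides (chr14:63122462-63145923, forward strand), measured 178, 201 and 178 in plasma cell Ctrl, against 53.0, 55.9 and 56.8 in activated Ctrl (3.36-fold; change 1.73, SE 0.11, adjusted p = 2.2e-10). Plasma cell libraries of both genes lay more than 100 RPKM above every activated library. Ctsz, Lgmn, Ctss and Ctsl were higher by 0.68, 0.74, 0.40 and 1.05, with adjusted p of 1.4e-05, 1.8e-04, 0.00555 and 0.00419.

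The opposite change was largest for Ctsh, which measured 56.9, 56.5 and 48.2 RPKM in plasma cell Ctrl, against 232, 215 and 261 in activated Ctrl (4.38-fold lower; change -2.11, SE 0.11, adjusted p = 1.1e-11). Ctsc was 25.3 ± 0.570 in plasma cell Ctrl and 62.1 ± 1.81 in activated Ctrl (change -1.27, adjusted p = 1.6e-07). Ctsa, the carboxypeptidase that also protects lysosomal neuraminidase and galactosidase (chr2:164832873-164841032, forward strand), was lower by a small amount (change -0.33, adjusted p = 0.0250). The call of Ctsa was lost without any 1 of the libraries other than activated Ctrl replicate 1 (highest adjusted p = 0.0830), and that of Ctss on unscaled values (0.226) and after quantile normalization (0.404). In KO, 6 members were called higher in plasma than in activated cells and 2 lower, against 15.8% and 17.4% of all genes, and Ctsa was not called (change 0.04, adjusted p = 0.869). Ctsd was 4.93-fold and Ctsb 4.55-fold higher in plasma cell KO than in activated KO (changes 2.28 and 2.15, adjusted p = 1.4e-09 and 9.9e-12). Lgmn measured 121, 122 and 118 RPKM in plasma cell KO, against 48.0, 40.5 and 49.6 in activated KO, 2.61-fold higher without overlap (change 1.37, SE 0.13, adjusted p = 1.0e-07). Ctsh was 4.12-fold lower, at 51.4, 44.6 and 52.7 in plasma cell KO, against 197, 187 and 229 in activated KO (change -2.02, adjusted p = 2.0e-11).

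Against naive cells, plasma cells in Ctrl had more Ctsb (change 1.91), Ctsd (1.89), Ctsz (1.36) and Lgmn (1.65), 4 of 9 called higher against 24.3% of all genes. Less abundant were Ctsa (-0.93), Ctsc (-0.57), Ctsh (-2.22) and Ctss (-0.42), 4 of 9 against 44.4%. Beside them, macrophage and monocyte markers averaged a sum of 22.3 RPKM in plasma cell Ctrl, against 185 in naive Ctrl (10 of 11 called lower), globin genes 0.489 in plasma cell Ctrl, against 378 in naive Ctrl, and platelet markers 1.55 in plasma cell Ctrl, against 72.2 in naive Ctrl. Their part was not tested. Ctsl was not called in this contrast, at 4.52 ± 0.475 RPKM in plasma cell Ctrl and 5.18 ± 1.90 in naive Ctrl. These Ctrl steps share libraries, as do those of KO, and naive and activated or plasma cells differ in isolation as well as in type.

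Activated B cells of KO mice held less RNA of several of these proteases than those of Ctrl mice. Of the 9 genes, 5 were called lower in activated KO than in activated Ctrl (Lgmn, Ctsa, Ctsd, Ctsb and Ctss) and 0 higher, against 1.36% and 0.422% of all tested genes. All 9 log2 changes were negative, where 53.0% of all genes had a negative one, and the median was -0.44 for the members and -0.02 for all genes. Libraries did not overlap, with KO lower, for 7 of 9 members, against 16.0% of all genes.

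Lgmn differed most. It measured 48.0, 40.5 and 49.6 RPKM in activated KO, against 94.96, 97.5 and 110.4 in activated Ctrl, and each KO library lay at around 50 or below while each Ctrl library lay above 90 (2.19-fold lower; change -1.12, SE 0.13, adjusted p = 1.0e-04). Ctsa measured 31.7, 25.0 and 27.5 in activated KO, against 48.7, 50.7 and 52.2 in activated Ctrl (1.80-fold lower; change -0.83, SE 0.11, adjusted p = 3.1e-04). Ctsb measured 37.7, 34.3 and 36.8 in activated KO, against 53.0, 55.9 and 56.8 in activated Ctrl (1.52-fold lower; change -0.59, SE 0.11, adjusted p = 0.00522). For these 3 genes the groups were separated by more than their own spread, and they were called lower in 16 of 16 settings tried.

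Ctsd measured 37.2, 41.9 and 36.6 RPKM in activated KO, against 56.0, 61.3 and 66.3 in activated Ctrl (change -0.65, SE 0.16, adjusted p = 0.0433). Ctss measured 194, 182 and 208 in activated KO, against 254, 251 and 289 in activated Ctrl (change -0.44, SE 0.11, adjusted p = 0.0359). Both genes had groups apart. Without any 1 of the 6 activated libraries both calls were lost, with adjusted p up to 0.245 for Ctsd and 0.248 for Ctss. In the own-library fit they were 0.00236 and 0.0111, and stayed below the threshold without any 1 library, up to 0.0126 and 0.0419.

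The other 4 members had negative changes that were not called. Ctsz measured 399, 489 and 394 RPKM in activated KO, against 536, 554 and 519 in activated Ctrl (change -0.33, SE 0.10, adjusted p = 0.1, and 0.0503 in the own-library fit). The 489 was replicate 3, the activated library of lowest estimated depth (2.66 M). Among the settings tried, Ctsz was called lower in 5 of 16 and Ctsc in 2 of 16. The groups of Ctsz did not overlap, nor did those of Ctsc, at 52.9 ± 3.28 in activated KO and 62.1 ± 1.81 in activated Ctrl (change -0.23, adjusted p = 0.622). Ctsh overlapped, at 204 ± 22.3 in activated KO and 236 ± 22.9 in activated Ctrl (change -0.21, adjusted p = 0.544). Ctsl overlapped too, at 0.974 ± 0.250 in activated KO and 1.71 ± 0.6003 in activated Ctrl, and was not called (95% interval of the change -0.99 to 0.11), except with library weights (adjusted p = 0.0117).

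**Figure D3:**
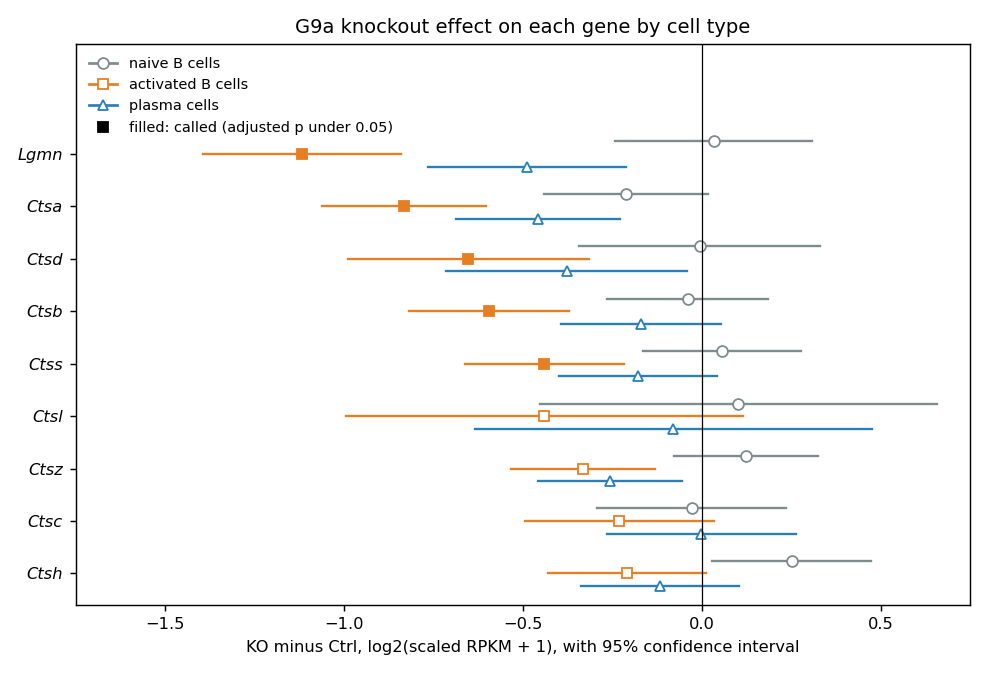
Change of each gene in KO minus Ctrl on the log2(scaled RPKM + 1) scale (x axis), with 95% confidence intervals from the fit of all 18 libraries, in naive B cells (circles), activated B cells (squares) and plasma cells (triangles); filled symbols are called. The filled symbols are the activated cell values of Lgmn (-1.12), Ctsa (-0.83), Ctsd (-0.65), Ctsb (-0.59) and Ctss (-0.44).

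Other RNA moved in the activated libraries too. Plasma cell markers (7 of 7 in the table) summed to 902 to 1091 RPKM in activated KO and 1608 to 1786 in activated Ctrl, and B cell markers (7 of 7) to 2342 to 2479 in activated KO and 3122 to 3560.0 in activated Ctrl. Of these B cell markers 2 were called lower in KO and 0 higher, and 5 of 7 changes were negative. Globin genes summed to 45.6 to 63.3 in activated KO and 10.2 to 12.9 in activated Ctrl, a difference carried by Hbb-bs and Hbb-b2, while Hba-a2 averaged 0.154 in activated KO and 0.471 in activated Ctrl. T and NK cell markers (3 of 10) summed to 10.8 to 12.8 in activated KO and 6.40 to 7.41 in activated Ctrl. Lck carried that sum, at 11.0 in activated KO and 6.79 in activated Ctrl. Cd3e averaged 0.348 in activated KO and 0.0654 in activated Ctrl, and Cd4 averaged 0.183 in activated KO and 0.0628 in activated Ctrl. Macrophage and monocyte markers overlapped, at 15.2 to 50.4 in activated KO and 21.6 to 31.8 in activated Ctrl, and no marker of these 5 lists was at 0 in every library. Cell cycle markers (5 of 5) summed to 849.8 to 943 in activated KO and 659 to 789.9 in activated Ctrl. The part of these markers in the lower protease RNA was not tested.

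In plasma cells the direction was again negative for 9 of 9 members, but 0 were called in the fit of all libraries, where limma called 0.172% of genes lower and 0.438% higher and 750 genes had an unadjusted p under 0.05, 4 members among them. The median change was -0.18, and -0.0036 for all genes. Libraries did not overlap, with KO lower, for 5 members (Ctsa, Ctsb, Ctsd, Ctsz and Lgmn), against 13.6% of all genes. Lgmn measured 121, 122 and 118 RPKM in plasma cell KO, against 173, 164 and 169.7 in plasma cell Ctrl (change -0.49, SE 0.13, adjusted p = 0.141). Ctsa measured 30.1, 29.7 and 26.9 in plasma cell KO, against 39.6, 40.3 and 40.1 in plasma cell Ctrl (change -0.46, SE 0.11, adjusted p = 0.0761). Ctsd measured 191, 192 and 188 in plasma cell KO, against 232, 255 and 256 in plasma cell Ctrl (change -0.38, SE 0.16, adjusted p = 0.703). Within each of these genes the replicates lay close together and the genotypes apart.

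In the own-library fit these 3 were called, with adjusted p of 0.00164 for Lgmn, 0.00717 for Ctsa and 0.00887 for Ctsd, against 2.73% of all genes called lower there. They were also called in that fit without the plasma cell KO library that held macrophage and globin RNA (0.0134, 0.0325 and 0.0445). Without replicate 1 of plasma cell KO, the adjusted p of Ctsd was 0.0520. Ctsb averaged 165 ± 10.7 in plasma cell KO and 186 ± 13.6 in plasma cell Ctrl, and Ctsz 719 ± 33.4 in plasma cell KO and 859.6 ± 68.7 in plasma cell Ctrl, neither called in either fit. Ctsc measured 25.2 ± 0.0837 in plasma cell KO and 25.3 ± 0.570 in plasma cell Ctrl (95% interval of the change -0.27 to 0.26). B cell markers summed to 941 to 1084 in plasma cell KO and 1298 to 1634 in plasma cell Ctrl. That sum rests on Cd79a and Cd79b, while 5 of the 7 markers had a positive change and the median was 0.34 (1 called lower, Cd79a, and 1 higher, Cr2). Of 3 T and NK cell markers, Cd3e averaged 8.71 in plasma cell KO and 0.0767 in plasma cell Ctrl and was called, and the changes of the other 2 were negative and not called. The part of these markers in the protease values was not tested.

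In naive B cells, 0 of 9 members were called in either fit, although the fit of all libraries called 2.10% of genes higher and 5.12% lower; in the own-library fit these shares were 0.0% each. An unadjusted p under 0.05 was reached by 1 member and by 3072 genes. Ctsh was the member concerned, at 303, 307 and 298 RPKM in naive KO, against 242, 278 and 244 in naive Ctrl (change 0.25, SE 0.11, adjusted p = 0.151). Its KO libraries lay above its Ctrl libraries, a separation seen in 4.32% of all genes. Lgmn measured 64.8, 41.7 and 59.3 in naive KO, against 56.1, 49.1 and 54.4 in naive Ctrl, which overlapped (change 0.03, 95% interval -0.24 to 0.31). Ctsd measured 63.1, 64.5 and 69.95 in naive KO, inside the spread of 91.1, 46.1 and 68.5 in naive Ctrl.

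The difference of the KO effect between cell types was tested itself. Activated minus naive, it was negative for 9 of 9 members and called for Lgmn (-1.15, SE 0.19, adjusted p = 0.00466) and Ctsa (-0.62, SE 0.15, adjusted p = 0.0385), against 1.27% of all genes called lower. In the own-library fit neither was called (0.0562 and 0.178, where 0.125% of all genes were), and why the fits differ was not tested. Ctsa kept its call from the fit of all libraries in 6 of 12 fits that left out 1 library (highest adjusted p = 0.117). Plasma cells minus activated cells, the difference was positive for 9 of 9 and called for 0 in the fit of all libraries (0.156% of all genes were called higher), where 416 genes, 3 members among them, had an unadjusted p under 0.05. For Lgmn it was 0.63 (SE 0.19, adjusted p = 0.472, and 0.00954 in the own-library fit, where 1.25% of all genes were called higher). Both differences use the activated libraries, so they are not independent.

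Other genes of the lysosome and of antigen presentation were counted from lists. In activated B cells, other cathepsins and lysosomal peptidases had 2 of 8 tested genes lower in KO and 0 higher, with a median change of -0.26. They were Ctse, an aspartic protease of endosomes, at 12.1 ± 6.82 RPKM in activated KO and 29.96 ± 10.5 in activated Ctrl (adjusted p = 0.0232), and the tripeptidyl peptidase Tpp1, at 15.1 ± 1.62 in activated KO and 22.5 ± 1.29 in activated Ctrl (adjusted p = 0.0483). Of other lysosomal hydrolases and activators, 3 of 37 were lower and 0 higher (Acp5, Glmp and Gm2a; median -0.29), and 32 of 37 changes were negative. Acp5, the tartrate-resistant acid phosphatase, averaged 36.0 ± 6.79 in activated KO and 72.0 ± 9.46 in activated Ctrl (adjusted p = 0.00626). Lysosomal membrane and proton pump genes had 3 of 27 lower and 0 higher (Laptm4a, Laptm5 and Atp6ap1; median -0.24). In the own-library fit, 3 of 8, 13 of 37 and 8 of 27 genes of these lists were called lower and 0 higher. The shares of all genes called lower were 1.36% in the fit of all libraries and 6.02% in the own-library fit.

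MHC class II presentation genes had 1 of 18 lower in activated KO, H2-Ob, a chain of the peptide exchange inhibitor H2-O, at 52.4 ± 7.42 RPKM in activated KO and 93.2 ± 13.8 in activated Ctrl (adjusted p = 0.00556), with 18 of 18 changes negative and a median of -0.26 (4 lower in the own-library fit). Of 13 genes of mannose 6-phosphate tagging and lysosomal sorting and of 17 lysosomal gene regulators, 0 were called in limma, where 1.36% of all genes were called lower, and the medians were -0.04 for both lists, against -0.02 for all genes (0 and 1 called lower, and 0 higher, in the own-library fit). No difference between lists was tested. Tfeb, a regulator whose protein binds the E-box above, averaged 42.7 ± 5.402 in activated KO and 47.6 ± 2.42 in activated Ctrl. Of 3 cystatins 0 were called. In plasma cells, 0 genes of these lists were called except H2-Aa and H2-Eb1 of MHC class II, both lower in KO (changes -0.45 and -0.48, adjusted p = 0.0258 and 0.0305). Of all genes, 0.172% were called lower there and 0.438% higher. In the own-library fit of plasma cells, 6 hydrolase genes, 5 membrane and proton pump genes, 3 MHC class II genes and 1 peptidase gene were called lower and 1 membrane gene higher. The shares of all genes in that fit were 2.73% lower and 2.38% higher. In naive cells, 4 genes of these lists were called (Csta1, Galc and Mtor lower in KO, Vps29 higher), and 0 in the own-library fit. All genes were called lower in 5.12% and higher in 2.1% of cases in the fit of all naive and other libraries, and in 0% in the own-library fit.

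**Figure D4:**
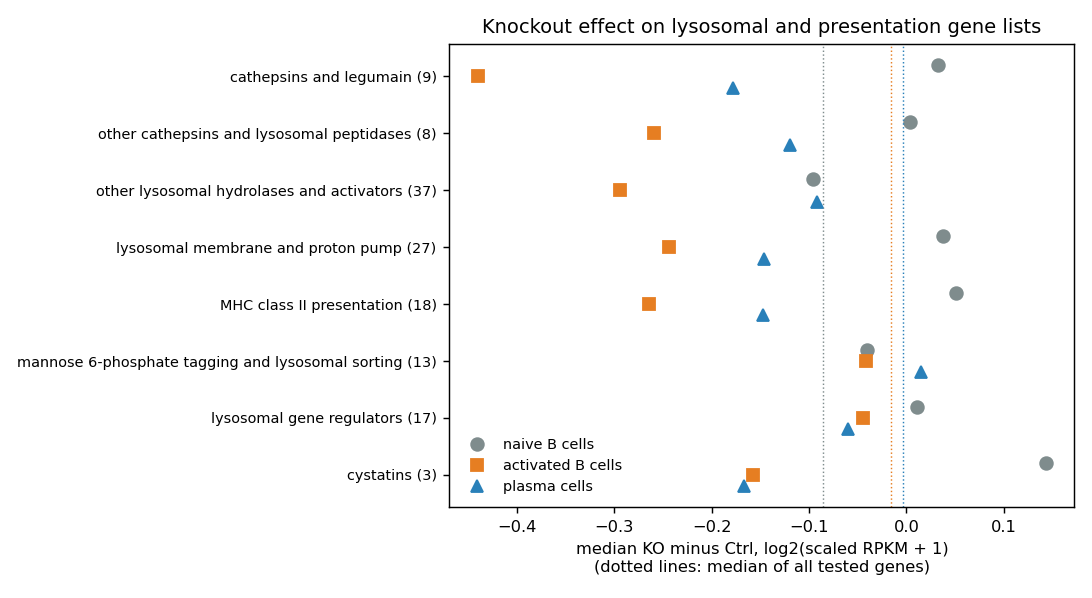
Median change in KO minus Ctrl on the log2(scaled RPKM + 1) scale (x axis) for the 9 genes and for 7 other lists, with the number of tested genes in brackets, in naive B cells (circles), activated B cells (squares) and plasma cells (triangles); dotted lines are the medians of all tested genes. In activated cells the 9 proteases lie at -0.44, the hydrolase, membrane, peptidase and MHC class II lists between -0.29 and -0.24, and the sorting and regulator lists at -0.04.

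In the step from activated to plasma cells in Ctrl, 6 of the 9 proteases were called higher in plasma cells and 3 lower, Ctsh, Ctsc and Ctsa. Of 18 MHC class II presentation genes 15 were lower and 1 higher (median -2.22), and of all genes 16.1% were higher and 16.7% lower. Other hydrolases had 15 of 37 higher and 5 lower, and membrane and proton pump genes 15 of 27 higher and 2 lower. Of 17 lysosomal gene regulators 2 were higher and 1 lower, with 10 positive changes and a median of 0.16. The lower one was Tfeb, at 10.4 ± 1.07 RPKM in plasma cell Ctrl and 47.6 ± 2.42 in activated Ctrl (change -2.09, adjusted p = 3.9e-09). Among the inhibitors, Cst3, the secreted cystatin C, was higher in plasma cells (change 1.59, adjusted p = 3.6e-09).

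Likeness of profiles across the 18 libraries is given as a description, since libraries of a cell type share that type and each library holds all 9 genes. Ctsb and Ctsd were the most alike (Pearson r = 0.978 of log2 levels), followed by Ctsz and Lgmn (0.909) and Ctsb and Lgmn (0.899), and Ctsb and Ctsh were the most opposed (-0.94). Among 8954 genes that reached 5 RPKM in some group, the profile most like that of Ctsb was Trp53inp1 (0.992), that of Ctsd was Fndc3a (0.984), that of Ctsz was Xbp1 (0.978) and that of Lgmn was Serinc5 (0.954). Ctsh was most like Rcsd1 (0.992), Ctsa like Ephx1 (0.977), Ctsc like Zeb2 (0.975), Ctss like Slc50a1 (0.972) and Ctsl like Tob1 (0.933).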

How the data were processed

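RNA-seq values were taken as deposited: RPKM, which the authors computed for 12960 detected genes in 18 libraries. Per the labels' protocols, RNA of 1000 cells was amplified with SMART-seq v4 and made into Nextera XT libraries; STAR and the build mm10 are named in the submitters' processing notes. The sources used here give neither the counter and gene models nor the detection rule, and say nothing of reads that match related genes, so reads shared by paralogs could affect a value. No value column was left unused (0). Depth was estimated from steps of low RPKM values times gene length. Of the values scored, 21.0% to 43.7% came to a whole number of reads (tolerance 0.1 to either side). The share was 21.0% in naive Ctrl replicate 3, near what evenly spread values would give, and 26.7% in replicate 2. Those estimates are therefore weak, while replicate 1 had 39.7%. Depth was used in no test.

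RPKM were divided by median-of-ratios factors (0.903 to 1.07, over 8012 genes above 1 RPKM in all libraries). Genes with a mean of 1 in at least 1 group were tested (12787; 173 left out) as log2(scaled RPKM + 1), which understates changes of low genes, in limma 3.58.1 (R 4.3.3; lmFit, eBayes with trend, two-sided) with Benjamini-Hochberg adjustment over all of them and a threshold of 0.05. Alternatives were a pseudocount of 0.1, a filter at 5 RPKM, no filter, unscaled and quantile-normalized values, library weights, a replicate block, the libraries compared alone, no naive libraries, and each library left out. The members, lists and tests were chosen with earlier results of these data known. Named by rule were the members, up to 4 called genes of a list, Ehmt2, and the genes most like each member. Some items of the labels and lists are not reported here. Of each list, the other members in the table were used, 12946 of the table's genes being matched to RefSeq. Positions are from GENCODE M21 (GRCm38, which mm10 denotes). The code was tested on simulated data. Other steps ran in Python 3.11.15 with matplotlib 3.10.9, numpy 2.4.6 and pandas 2.3.3.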

Additional observations from a re-analysis of the deposited data

Results flagged for a closer look

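The KO effect differed between activated and naive B cells for 2 members by the test of the difference itself. For Lgmn the effect in activated minus that in naive cells was -1.15 (adjusted p = 0.00466, limma), with a change of -1.12 in activated and 0.03 in naive cells. For Ctsa it was -0.62 (adjusted p = 0.0385), with -0.83 in activated and -0.21 in naive cells. Lgmn was called in 18 of 21 settings and Ctsa in 10 of 21. The call of Ctsa was lost without naive Ctrl replicate 3 (adjusted p = 0.0576), activated KO replicate 3 (0.117) or 4 (0.0840), or activated Ctrl replicate 1 (0.0713), 3 (0.0894) or 4 (0.106). Over all tested genes the naive libraries vary more than the others. The median SD of the members was 0.1375 in naive KO and 0.137 in naive Ctrl, against 0.153 in activated KO and 0.111 in activated Ctrl. Neither difference was called in a limma fit of only the 12 libraries concerned (adjusted p = 0.0562 and 0.178).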

How the results depend on the processing

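The counts of members called differed between fits, as did the share of all tested genes called, which is given in brackets for the direction of the members. For KO against Ctrl in plasma cells (0 lower with all libraries; 0.172% of genes), 3 members were lower in the fit of their own libraries (2.73%), 5 with library weights (6.53%) and 3 when the 6 naive libraries were dropped (3.01%); leaving out 1 library gave 0, and 2 to 3 in the fit of their own libraries. In activated cells (5 lower; 1.36%), library weights gave 8 (10.2%), and leaving out 1 library 3 to 4. For the KO effect in activated minus naive cells (2 lower; 1.27%), the fit of their own libraries gave 0 (0.125%), library weights 0 (0.0235%), and leaving out 1 library 1 to 5 (5 without naive KO replicate 2, 4 without naive Ctrl replicate 1 or 2, 1 without naive Ctrl replicate 3, activated KO replicate 4 or activated Ctrl replicate 1, 3 or 4). For plasma minus activated cells (0 higher; 0.156%), there was 1 in the fit of their own libraries (1.25%), 3 with weights (3.41%) and 1 when naive libraries were dropped (1.25%). The cause was not tested.

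Correlations of the deviations of same-numbered libraries were -0.001, -0.189 and -0.122 between naive KO and Ctrl, -0.212, -0.165 and 0.070 in activated and 0.068, 0.195 and 0.312 in plasma cells, where each KO library, but not each Ctrl library, correlated best with its own number. Between plasma and activated cells they were 0.055, -0.192 and -0.025 in KO, and -0.008, 0.122 and 0.154 in Ctrl. The labels do not say whether same-numbered activated and plasma cell libraries came from the same mouse, and the main tests treat them as unpaired. As not every pair passed 0.1, an arbitrary cut, in any comparison, the numbers were not taken to pair the libraries. With a replicate block, 3 members were called lower in activated cells (1.09% of all genes were) and 1 in the activated minus naive difference (0.751%). With the block within their own libraries, 4 were called lower in plasma cells (3.89%) and 1 higher in plasma minus activated (1.21%). In activated minus naive, 0 were called lower with that block (0.0235%). That setting was chosen after seeing the data, as was leaving out libraries in that fit.

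No called change turned its direction. Of the results for single members under alternatives, 1465 kept their side of the threshold, 68 gained a call, 39 lost it, and 48 uncalled values changed sign. Depth was set against no result.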
